A study of Mus musculus with 2 samples.

Results

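The genes of alveolar fluid transport examined here are the 3 subunits of the epithelial sodium channel (Scnn1a, Scnn1b and Scnn1g), the anion channel Cftr, the sodium pump subunit Atp1b1, the chloride-loading cotransporter Slc12a2 and the aquaporins Aqp1, Aqp4 and Aqp5. They were taken by gene symbol from the platform annotation, and all 9 were found among 19505 named genes, each represented by 1 platform identifier. Expression was measured in mouse lung cells sorted for an SPC/GFP reporter and for EpCAM, an epithelial surface protein. SPC commonly stands for surfactant protein C, which alveolar type 2 cells make. RNA from mice kept in smoke for 3 months and from mice kept in air for 3 months was hybridised to Clariom S Mouse arrays, with 1 array per group. The sources used here do not give the strain, sex or age of the mice, the reporter allele, how many animals stood behind a sample or whether they were pooled.

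The airspaces of the lung are kept nearly dry by active salt transport. Sodium enters the epithelial cell through the apical sodium channel ENaC, which is assembled from alpha, beta and gamma subunits, and is pumped out at the basolateral side by the Na,K-ATPase, so that water follows through the epithelium. Anion channels such as CFTR can carry chloride in either direction, depending on the driving force, and aquaporins give water a path through the membrane.

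Values are log2 signals as deposited, and differences are smoke minus air on that scale. With 1 array per group there is no SD, no p-value and no replicate check, so each difference compares these 2 samples and not the exposures. To be called higher or lower, a gene had to differ by at least 2-fold (a log2 difference of 1) and reach 4.57, the median over all probes and both arrays, on its brighter array. By this rule 3.94% of the 10419 genes above this level filter were higher and 2.48% were lower in the smoke sample. For each gene the differences of the 500 genes nearest in mean level are given as a yardstick. That yardstick mixes array error with true differences between the samples.

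None of the transport genes passed 2-fold in either direction (0 of 8 above the level filter). Cftr was the furthest on the higher side, with a log2 signal of 14.47 in smoke and 13.66 in air. Scnn1g was the furthest on the lower side among genes above the filter, at 9.80 in smoke and 10.45 in air. Above the filter 4 genes had higher signals in smoke (Cftr, Scnn1a, Scnn1b and Atp1b1) and 4 had lower signals (Scnn1g, Aqp1, Slc12a2 and Aqp5). Their median log2 difference was -0.08, and it was 0.06 over all genes above the filter. All 8 were above the filter on both arrays, and Aqp4 was below it on both. With Aqp4 included, the median of the 9 was -0.23, against -0.02 over all genes without the filter.

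**Figure D1:**
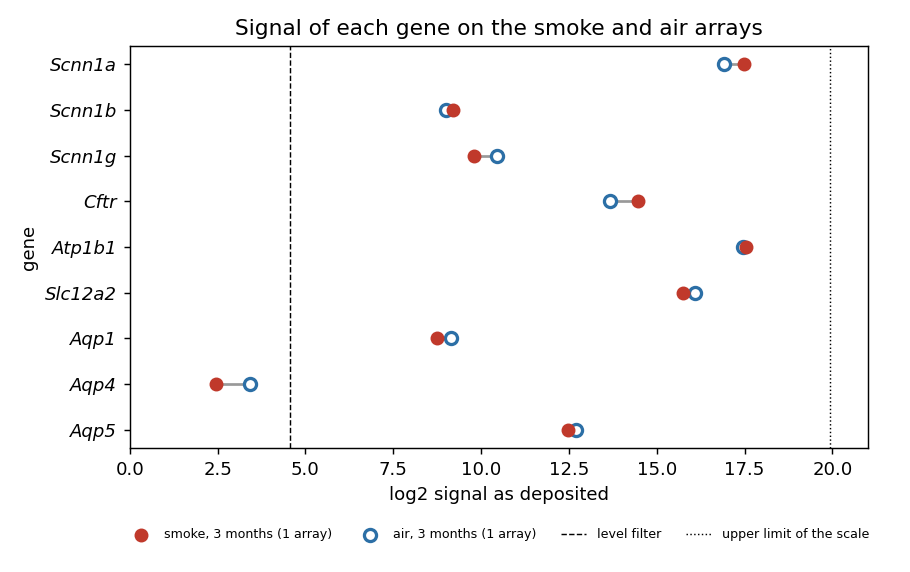
Log2 signal of each gene on the smoke array (filled) and the air array (open), with the level filter of 4.57 and the ceiling of the deposited scale, 19.93. The distances between the arrays look short because the axis spans the whole scale. The widest is that of Aqp4 (-0.97), the 1 gene left of the filter on both arrays.

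The ENaC subunits had differences of both signs. Scnn1a encodes the alpha subunit, which the channel needs to conduct, and newborn mice that lack it cannot clear fluid from the lung. Its log2 signal was 17.48 in smoke and 16.90 in air, a difference of 0.58 or 1.49-fold. Of the 500 genes of like level, 67 (13.4%) differed by at least as much in either direction. The Scnn1a signal lay 2.45 below the ceiling of the scale in smoke, so the ceiling did not cap it.

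Scnn1b encodes the beta subunit, whose overexpression in the airway dehydrates the airway surface in mice. It stood at 9.21 in smoke and 9.0 in air, a difference of 0.21. At that level 325 of 500 genes (65.0%) differed by as much or more, so the signals of the 2 samples were closer than those of most comparable genes. Scnn1g, the gamma subunit gene, which carries its own site for activation by proteases, had a difference of -0.65, 1.57-fold lower in smoke. At its level 73 of 500 genes (14.6%) differed by as much.

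In the RefSeq annotation Scnn1g and Scnn1b are neighbours with 0 protein-coding genes between them, yet their differences had opposite signs. The gap between those of Scnn1a and Scnn1g was 1.23 on the log2 scale, and between those of Scnn1b and Scnn1g it was 0.86. These gaps compare differences and not levels, since signals of different probes are not on a common scale. Whether they exceed the error of an array could not be tested.

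Atp1b1, the beta subunit that carries the sodium pump to the membrane, had the smallest difference of the 9. Its signal was 17.53 in smoke and 17.46 in air, a log2 difference of 0.07, and 408 of 500 genes of like level (81.6%) differed by more or as much.

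Cftr encodes the cyclic AMP-regulated chloride and bicarbonate channel that is defective in cystic fibrosis. Its log2 difference of 0.81 was 1.75-fold, and 31 of 500 genes of like level (6.2%) differed by at least as much. The central 95% of those genes ran from -0.62 to 0.96, so Cftr lay inside it. Slc12a2 encodes NKCC1, the cotransporter that loads chloride into the cell across the basolateral membrane for secretion. Its signal was 15.74 in smoke and 16.10 in air, a difference of -0.36, and 31.0% of genes of like level differed as much. The exit channel and the loading cotransporter of chloride thus had differences of opposite sign, 1.17 apart.

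The signals of all 3 aquaporins were lower in smoke. Aqp5, the apical water channel of type 1 cells and of gland epithelium, was at 12.46 in smoke and 12.69 in air, a difference of -0.23 that 59.4% of genes of like level reached. Aqp1, the water channel of capillary endothelium and red cells, was at 8.74 in smoke and 9.15 in air. Its difference was -0.41, and 187 of 500 genes of like level (37.4%) differed by as much.

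Aqp4, a basolateral water channel of airway epithelium, had signals of 2.46 in smoke and 3.43 in air. Both lay below the level filter. Its log2 difference of -0.97 was the largest in size of the 9 and was matched by 17 of 500 genes of like level (3.4%), whose central 95% ran from -0.94 to 0.82. It shrank to -0.32 when an offset of 16 was added on the linear scale, so its size rested on how low signals are treated.

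**Figure D2:**
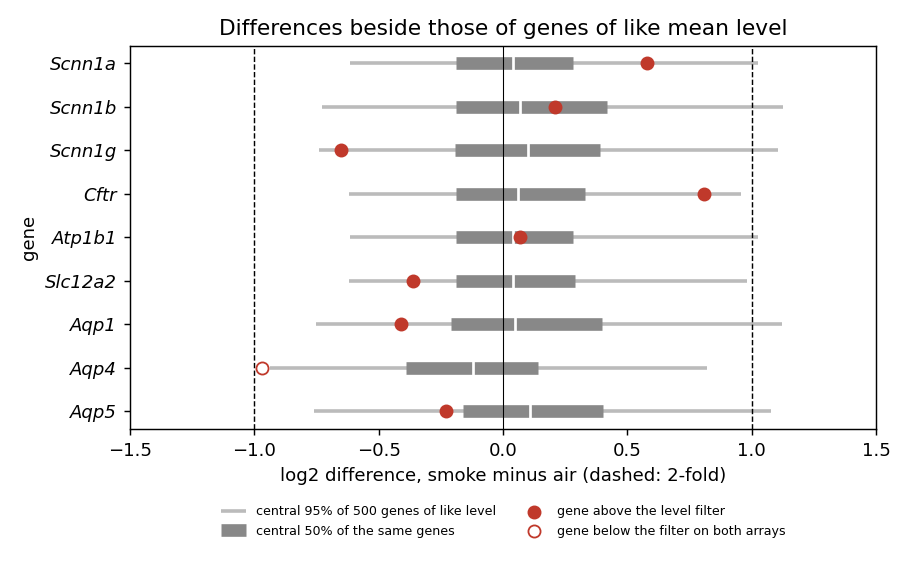
Log2 difference, smoke minus air, of each gene (points) over the central 95% (thin bar), the central 50% (thick bar) and the median (white tick) of the 500 genes nearest in mean level. Aqp4, drawn open because it was below the filter on both arrays, is the 1 gene outside the thin bar, and Scnn1b and Atp1b1 are the 2 inside the thick bar.

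In this yardstick 8 of the 9 genes lay inside the central 95% of genes of like level and 2 inside the central 50%. For Scnn1a and Atp1b1 the 500 nearest genes spanned mean levels from 13.54 to 19.91, because few genes are so bright. With the 100 nearest genes the share that differed by as much was 10% for Scnn1a, 8% for Cftr, 16% for Scnn1g, 79% for Atp1b1 and 1% for Aqp4, against 3.4% of the 500. These shares count differences in either direction. Counted in the gene's own direction alone, the share of the 500 was 3.6% for Scnn1g, 4.6% for Cftr and 9.8% for Scnn1a. It was 2.2% for Aqp4, 11.6% for Slc12a2, 12.6% for Aqp1 and 19% for Aqp5. For Scnn1b and Atp1b1 it was 40.6% and 45%. At a looser threshold of 1.5-fold, Cftr was higher and Scnn1g lower, and Scnn1a was just short of it at 1.49-fold. By that threshold 14.5% of all genes above the filter were higher and 9.19% were lower, near the 1 of 8 in each direction among the transport genes.

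The promoters of the 2 genes with the furthest differences above the filter are shown, Cftr for the higher side and Scnn1g for the lower. Promoter sequences, taken from RefSeq on GRCm38.p6, run from 250 bases before to 50 bases after the annotated start, and 6 of the 9 genes had an entry (Scnn1b, Scnn1g, Cftr, Atp1b1, Aqp1 and Aqp5). Capitals mark a motif match, and both promoters lie on the + strand, Cftr at chr6:18170437-18170736 and Scnn1g at chr7:121734229-121734528.
Cftr: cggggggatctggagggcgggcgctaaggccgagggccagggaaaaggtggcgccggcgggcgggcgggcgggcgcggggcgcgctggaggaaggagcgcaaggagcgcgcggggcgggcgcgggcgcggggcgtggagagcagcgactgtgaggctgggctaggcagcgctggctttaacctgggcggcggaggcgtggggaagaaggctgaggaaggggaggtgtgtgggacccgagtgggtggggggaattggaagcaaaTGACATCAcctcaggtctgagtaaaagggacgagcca
Scnn1g: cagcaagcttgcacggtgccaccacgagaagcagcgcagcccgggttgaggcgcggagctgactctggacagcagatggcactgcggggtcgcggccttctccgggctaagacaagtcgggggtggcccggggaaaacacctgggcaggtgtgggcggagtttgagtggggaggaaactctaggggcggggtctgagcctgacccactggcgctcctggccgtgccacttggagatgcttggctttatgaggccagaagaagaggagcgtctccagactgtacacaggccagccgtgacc

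Both strands were searched for the cyclic AMP response element TGACGTCA, its variant TGACATCA and the E-box CACGTG. The variant was added after the Cftr sequence was seen. The Cftr window held TGACATCA at positions 264 to 271 of its 300 bases, and 3.62% of 32851 mouse promoter windows held it. The Scnn1g window held none of the 3 motifs. Among the other entries the Aqp5 window held an E-box, as did 7.15% of all windows. TGACGTCA, held by 1.79% of all windows, was in none of the 6. A match of letters is a description and does not show binding.

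Proteins that regulate ENaC were examined next. St14, the membrane protease matriptase that can activate ENaC, stood at 9.52 in smoke and 8.34 in air, 2.27-fold higher, and was the 1 of 7 protease and inhibitor genes past 2-fold. The protease prostasin, encoded by Prss8 and able to cleave the gamma subunit, was at 12.87 in smoke and 12.10 in air. Its difference of 0.77 was reached by 10.6% of genes of like level. Spint1, a surface inhibitor of such proteases, had a difference of 0.43, and Spint2, the other inhibitor measured, had one of -0.22. Furin, which cleaves the channel on its way to the membrane, differed by -0.01. The median of the 7 was 0.42, with 4 higher and 3 lower.

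Among 15 kinases, ubiquitin ligase genes and steroid receptor genes above the filter, 0 were called higher and 1 was called lower. That gene was Hsd11b1, an enzyme that regenerates active glucocorticoid, at 6.38 in smoke and 7.43 in air. Its log2 difference of -1.05 was -0.92 with the offset, under 2-fold. Nedd4l, the ubiquitin ligase that removes ENaC from the membrane, was at 15.08 in smoke and 15.39 in air. Sgk1, the kinase that inhibits Nedd4l and so raises ENaC, was at 6.69 in smoke and 7.54 in air, a difference of -0.85 that 9.8% of genes of like level reached. Wnk1, a kinase upstream of the chloride cotransporters, differed by 0.01. The receptors for glucocorticoid and mineralocorticoid, Nr3c1 and Nr3c2, differed by 0.18 and 0.09. The median of this list was -0.14 above the filter. The 5 acid-sensing channel genes of the ENaC family were below the filter on both arrays, and the brightest, Asic4, was at 3.59 in smoke and 3.91 in air.

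Of the other sodium pump genes, Atp1b3, a second beta subunit, was at 12.94 in smoke and 12.63 in air. Fxyd2, the gamma subunit that modulates the pump, was 2.04-fold lower at 5.35 in smoke and 6.38 in air, and its difference was -0.81 with the offset. It was the 1 of 5 genes above the filter past 2-fold. Of the SLC12 cotransporters related to Slc12a2, 3 of 7 were above the filter and 0 passed 2-fold. Slc12a4, which moves potassium and chloride out of the cell, was at 7.81 in smoke and 7.09 in air, and Slc12a9 at 5.54 in smoke and 6.32 in air.

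Other chloride and bicarbonate transporters included 12 genes above the filter. Slc26a4, the exchanger pendrin, stood exactly at the threshold, with 11.37 in smoke and 10.37 in air, and was the 1 counted as higher. It passed under neither the offset (0.99) nor quantile normalization (0.92). Slc26a9, a chloride channel that interacts with CFTR, was at 16.39 in smoke and 16.74 in air. The calcium-activated channel gene Ano1 was at 10.53 in smoke and 11.28 in air. Slc9a3r1, a scaffold that binds CFTR at the apical membrane, had a difference of 0.63. The median above the filter was 0.10, with 7 higher and 5 lower, and over all 17 measured genes it was -0.15.

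Potassium channels set the electrical force for chloride exit. Kcnq1, a basolateral potassium channel of airway and alveolar epithelium, was at 8.66 in smoke and 7.50 in air, 2.23-fold higher. Kcne2, an accessory subunit that can assemble with it, was at 10.18 in smoke and 11.54 in air, 2.57-fold lower. These 2 of the 7 genes above the filter passed 2-fold, in opposite directions, and the median was -0.02. Kcnj15, an inward rectifier, was at 11.69 in smoke and 11.71 in air. Of 14 measured genes 7 were below the filter on both arrays, among them Cnga1, Cnga2 and Cnga3, the cyclic nucleotide-gated channel genes.

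Besides Aqp1, Aqp4 and Aqp5, 9 aquaporin genes were measured, and 8 were below the filter on both arrays. Aqp11, an intracellular aquaporin, was above it in air alone, at 4.27 in smoke and 4.70 in air. Genes of cyclic AMP signalling, which stimulates alveolar fluid clearance and CFTR, had 0 of 13 genes above the filter past 2-fold and a median of 0.09, which was -0.03 over all 15 measured. Pde7a, a phosphodiesterase, had the largest difference, 0.80, and Gnas, the stimulatory G protein, was at 14.20 in smoke and 14.11 in air.

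Over these 9 lists, 3 of 63 genes above the filter (4.76%) were called higher and 3 (4.76%) lower, beside 3.94% and 2.48% of all genes above the filter. Of the 63, 60 were above the filter on both arrays and 3 on 1 array alone. Their median difference was -0.01.

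**Figure D3:**
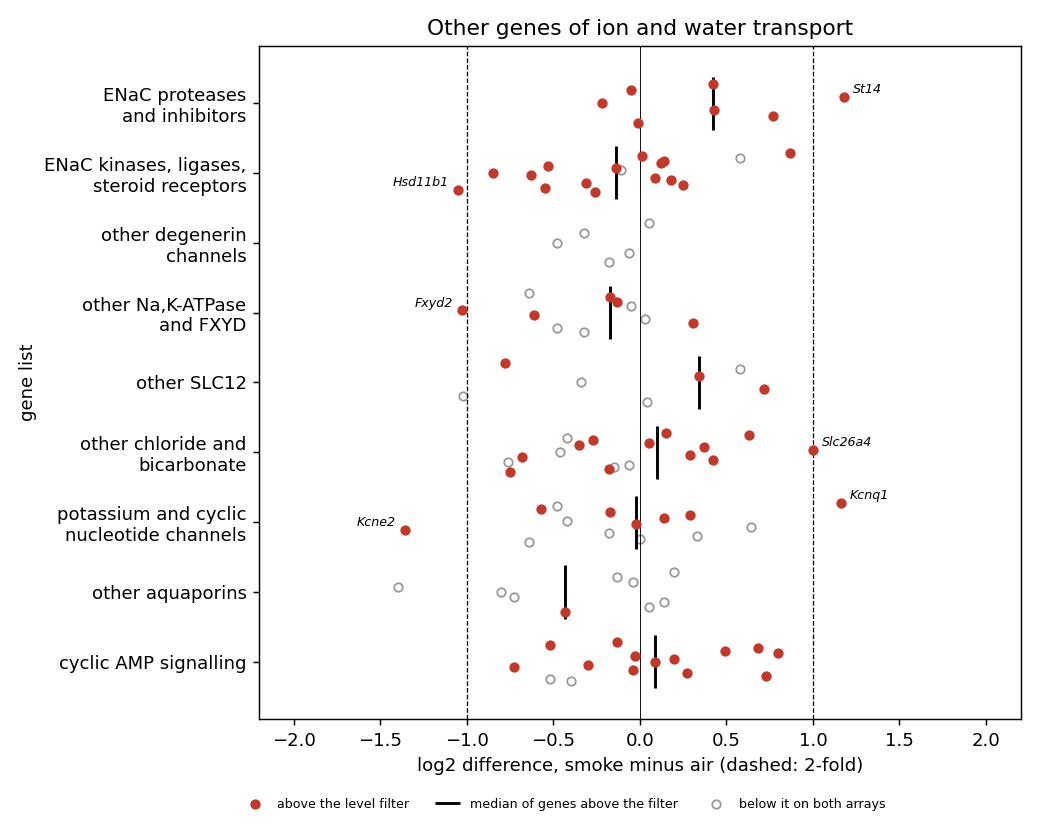
Log2 difference, smoke minus air, of other ion and water transport genes, 1 point per gene, with genes below the level filter open and the median of those above it as a black tick. The 6 labelled genes are those above the filter at or past 2-fold, 3 on each side. Aqp7 and Slc12a3, open points at -1.40 and -1.02, were below the filter on both arrays.

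The sorted cells were checked against markers of the cell types they could hold. The type 2 markers Sftpc, Sftpb, Sftpa1, Lamp3, Slc34a2 and Cxcl15 reached the ceiling of 19.93 in both samples, and Etv5 and Napsa lay so close to it that a higher signal in smoke could hardly show. Sftpd, Abca3 and Lpcat1 differed by 0.05, 0.04 and 0.04. Markers defining other cell types were present too. Endothelial markers, which the sort should leave out, were all above the filter (14 of 14 measured), as were 10419 of all 19489 genes not at the ceiling. Their median difference was -0.62, with 12 lower and 2 higher in smoke. Over all genes above the filter 4660 were lower and 5661 higher, with a median of 0.06. The summed linear signal of the endothelial markers was 29382 in smoke and 46747 in air. Cldn5 and Eng, an endothelial junction gene and endoglin, were past 2-fold, at -1.17 and -1.03. These 2 of 14 stand beside the 2.48% of all genes above the filter that were called lower. Cdh5, VE-cadherin, was at 13.86 in smoke and 14.34 in air. The Aqp1 difference of -0.41 had the sign of this list, and the part of endothelial RNA in it was not tested. Fewer cells of a type and less RNA per cell cannot be told apart in such samples.

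Red cell markers, the other usual source of Aqp1, were mostly not analysed here (5 of 7). Slc4a1, the red cell anion exchanger, was at 5.17 in smoke and 5.63 in air, and Alas2 was below the filter on both arrays. Type 1 markers had a median of -0.16 over 11 genes, beside the Aqp5 difference of -0.23, with 7 lower, 2 higher and 0 past 2-fold. Their summed linear signal was 1232730 in smoke and 1221799 in air. Most of that sum came from Ager, Gprc5a and Cldn18, each at 18.41 or above on both arrays, so it says little of the dimmer markers. Emp2 had the largest difference, -0.50, while Gprc5a was at 18.68 on both arrays. The part of type 1 RNA in the Aqp5 signal was not tested.

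Airway cells can also hold Cftr, ENaC and Aqp4. Scgb1a1, which marks club cells, reached the ceiling in both samples. The 5 other club and secretory genes above the filter had a median of -0.64, which was -0.42 with the offset. Of these, 4 were lower in smoke, among them Scgb3a1 at 5.02 in smoke and 6.85 in air. The 1 higher in smoke was Scgb3a2, with a difference of 0.6. Of 6 ciliated markers above the filter, Cfap126 was higher, at 8.21 in smoke and 6.65 in air, and Tppp3 was lower, at 9.02 in smoke and 10.46 in air. The summed linear signal of the ciliated markers was 1804 in smoke and 2614 in air. That lower sum in smoke rested on Tppp3, the brightest of the list, and of the 6 above the filter 4 were lower and 2 higher. The summed signal of the club list without Scgb1a1 was 57653 in smoke and 72261 in air. Nearly all of the club sum came from 1 gene, Cyp2f2, at 15.80 in smoke and 16.13 in air. The basal cell markers Krt5, Krt14, Trp63 and Ngfr were below the filter on both arrays, as was Aqp3. Macrophage, fibroblast and mesothelial lists had medians of -0.23, -0.05 and -0.32 above the filter. Chil3, a macrophage product, was at 9.87 in smoke and 11.27 in air, Col1a1, a collagen chain, at 5.06 in smoke and 6.24 in air, and Msln, mesothelin, at 3.57 in smoke and 4.85 in air. With the offset Col1a1 was at -0.89 and Msln at -0.69, both under 2-fold. Of the 7 fibroblast genes above the filter 3 were higher in smoke, among them Col3a1 at 0.63, and 4 were lower. Pdgfrb, a fibroblast and pericyte receptor, was 2-fold lower, exactly at the threshold, and was at -0.75 with the offset. The mesothelial gene Upk3b differed by 0.65. How far airway or other cells contributed to the transport gene signals was not tested.

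**Figure D4:**
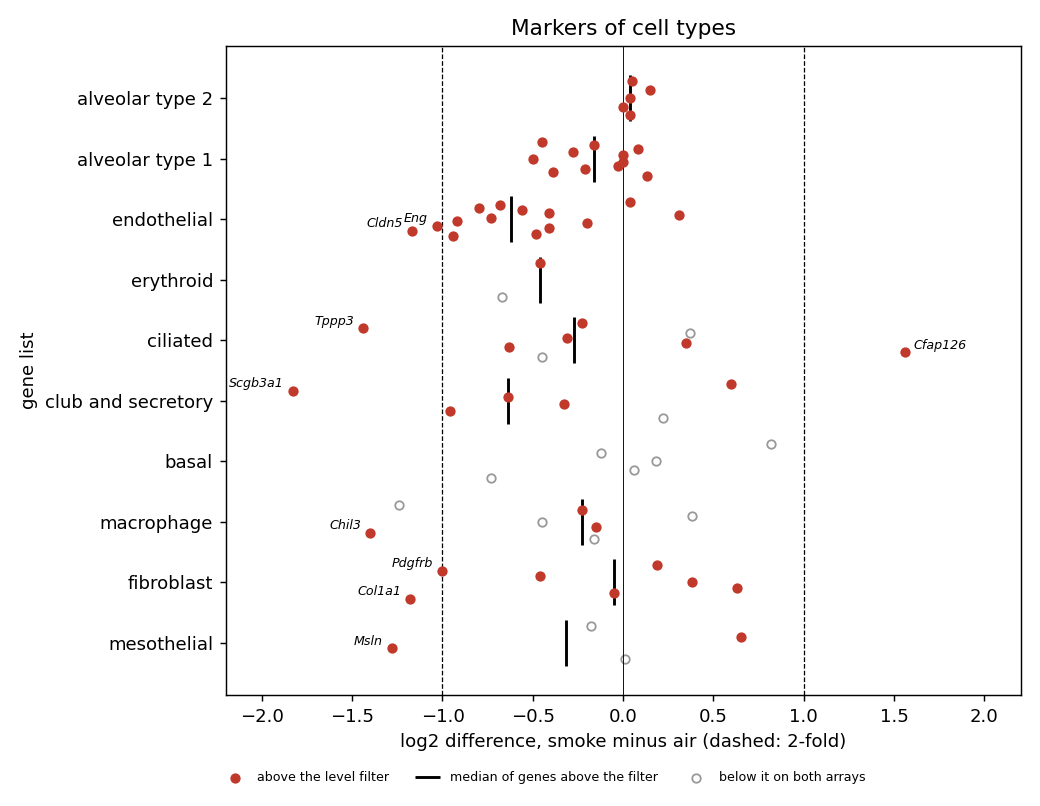
Log2 difference, smoke minus air, of markers of 10 cell types, 1 point per gene, leaving out genes at the ceiling of 19.93 in both samples. The type 2 markers drawn lie near 0, some of them close to the ceiling, and the endothelial median lies at -0.62.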

How the data were processed

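Total RNA of 2 sorted samples was labelled and hybridised, 1 array each. The authors deposited 1 log2 signal per platform identifier and array. No label states the scale; a range of 1.55 to 19.93 with 2 decimals is that of log2 signals, and rounding adds error to a difference. The submitters' processing notes name Transcriptome Analysis Console. How background was corrected and arrays were normalized or centred is not given in the sources used here. Array medians were 4.53 in smoke and 4.61 in air, the median probe difference was -0.02, and the direction follows from the labels.

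Of 22206 probes, 19572 had 1 gene symbol, 0 had several and 2634 are unnamed here. All 19572 matched RefSeq by Entrez number, and probes of a gene were averaged, giving 19505 genes. Counts omit the 16 genes at the ceiling of 19.93 in both samples, whose difference cannot be read. The number of arrays limits the precision, and no test across samples was possible. The procedure was tested on data simulated from the air array, with noise set by the spread between the smoke and air arrays. Such a test checks the calling rule and cannot measure the error of an array. Python 3.11.15 with pandas 2.3.3 was used.

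The members and lists were chosen with earlier results of these data known. Named genes are the 9 transport genes and, from each other list, genes past 2-fold, the largest difference and the highest signal. Others named (among them Prss8, Spint2, Furin, Nedd4l, Sgk1, Nr3c1, Nr3c2, Ano1, Slc9a3r1, Alas2, Scgb3a2 and Col3a1) were chosen after their values were seen. Alternatives were quantile normalization, centring on genes of like level, an offset, the brightest probe of a gene, other filters and other thresholds.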

Additional observations from a re-analysis of the deposited data

How the results depend on the processing

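The count of transport genes past 2-fold was 0 higher and 0 lower under quantile normalization and after centring on genes of like level. It was also 0 and 0 without a filter, with the filter raised to the 75th percentile, with the filter applied to the mean level, at 3-fold and with the offset of 16. Those last settings could not have raised the count, because no deposited difference reached 2-fold and the offset only shrinks differences. At 1.5-fold the count was 1 higher and 1 lower, by construction of the looser threshold. Of 45 alternative values for the 9 differences, 0 had the other sign, and 1 moved by more than the spread of genes of like level, which was Aqp4 with the offset (-0.32). The 45 include the brightest probe of each gene, which could not differ because each of the 9 had 1 platform identifier. They also include the offset, which cannot change a sign. Only quantile normalization and centring could have given the other sign. Centring on the 100 nearest genes was chosen after seeing the data. The median over the transport genes above the filter, -0.08, ranged from -0.17 under quantile normalization to -0.08 with the offset, was -0.16 after centring, and was -0.23 with no filter, which adds Aqp4. Of 68 alternative medians of the other 17 lists with genes above the filter, 4 had the other sign: the fibroblast list was at 0.03 and 0.05 under quantile normalization and centring, and the chloride and cyclic AMP lists were at -0.15 and -0.03 without the filter, an alternative also chosen after seeing the data. Without replicate arrays, none of these alternatives measures the error of a single array. No paired analysis was possible because each group has 1 array.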
